A study of Mus musculus with 3 samples.

Results

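MicroRNAs are made by a short line of proteins, and 8 of the 10 genes described here encode members of that line: Drosha, Dgcr8, Xpo5, Dicer1, Tarbp2, Prkra, Ago1 and Ago2. The remaining genes, Lin28a and Lin28b, encode RNA-binding proteins that block the maturation of the let-7 microRNAs. All probes on the array that carry an accession of one of these genes were taken, whatever their signal, which gave 14 probes for 10 genes, out of 55681 probes that were not controls and 20660 genes named on the array. Drosha, Ago1, Ago2 and Lin28b had 2 probes each, the other 6 genes had 1 probe each, and every one of the 14 probes was printed as 1 spot per array.

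The samples were J1 mouse embryonic stem cells (mESCs), a line of strain 129S4/SvJae that comes from the inner cell mass and was grown on gelatin without feeder cells. All 3 cultures received 1 µM PD0325901 (PD), an inhibitor of the kinase MEK, for 24 h, in medium that held 1000 U/mL of the cytokine LIF. They form 1 group, replicates 1 to 3, and each RNA, labelled with Cy3 alone, was read on a separate Agilent array of a shared slide. Cells without PD were not analysed here, so the values below describe treated cells only, and no effect of PD was tested on any gene.

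In the nucleus, the RNase III enzyme Drosha and its RNA-binding partner Dgcr8 form the Microprocessor, which cuts a hairpin out of a long primary transcript. Exportin 5, the product of Xpo5, carries the hairpin to the cytoplasm, where Dicer, with the partners encoded by Tarbp2 and Prkra, removes the loop. One strand of the duplex is then loaded into an Argonaute protein. In mESCs this pathway makes the microRNAs that mark the undifferentiated state, while mature let-7 stays low and Lin28 proteins are abundant. A microarray of mRNA measures the transcripts of the machinery and not the mature microRNAs or the proteins.

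The software called all 8 listed markers of embryonic stem cells well above background on every array. Of the marker genes of other lineages, 3 of 6 for fibroblasts, 2 of 4 for trophoblast, 4 of 4 for primitive endoderm and 4 of 4 for neural cells were so in every sample, beside 72.7% of all named genes by their brightest probe, and the fibroblast genes Lum and Postn and the trophoblast genes Cdx2 and Elf5 were so on none. Whether a detected lineage marker came from few cells or from little RNA in many cells cannot be told apart in these bulk samples. Non-uniform spots numbered 187 on replicate 2, beside 25 on replicate 1 and 8 on replicate 3, and no spot was saturated.

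The transcripts of all 10 genes were measured in every sample: 14 of 14 probes were flagged well above background on all 3 arrays. Over all probes that were not controls this share was 60.3%, over the probes matched to a gene it was 72.4%, and over named genes by their brightest probe it was 72.7%. The signal nearest to background, that of the second probe of Ago1, was at least 4.53 times the lowest signal that was well above background on its array, which was 10.1, 11.4 and 10.3 on replicates 1 to 3. Signals are given below as the processed intensity of the scanner software, and levels as log2 units relative to the 75th percentile of the array, which is set to 0. The brightness of a probe depends also on its sequence, so levels of different genes were not ranked, and where probes of 1 gene are set side by side the gap describes the probes.

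**Figure D1:**
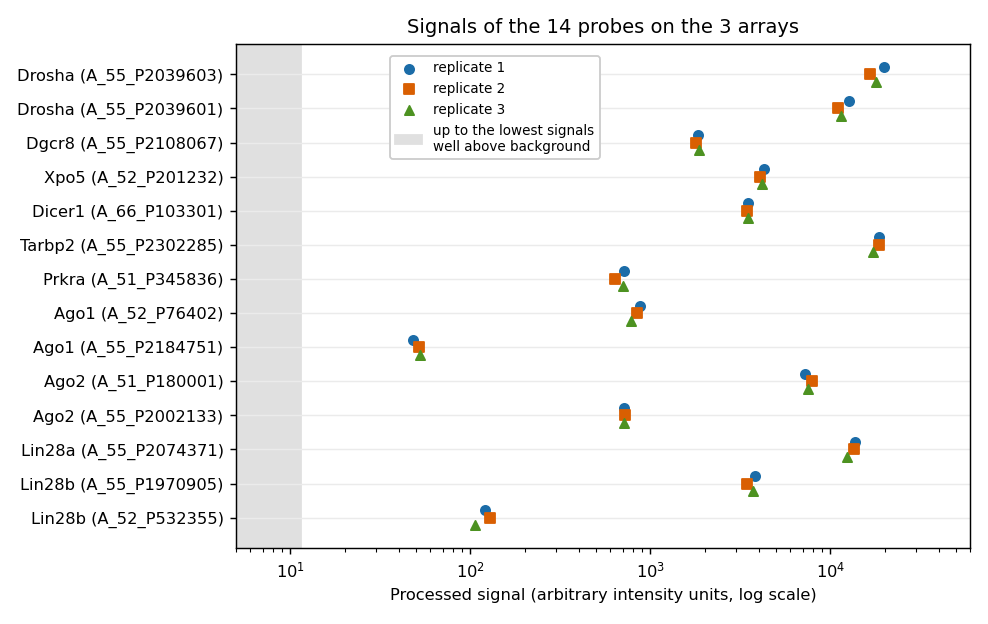
Processed signal of each of the 14 probes (horizontal axis, arbitrary intensity units on a log scale) on replicates 1 to 3, with 1 point per array and the probe named after its gene. The shaded band ends at 11.4, the highest of the 3 lowest signals well above background; all points lie to its right, the nearest being the second probe of Ago1 at 48.0.

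Both transcripts of the Microprocessor core were detected in all samples. Drosha, the enzyme that makes the first cut, gave signals of 19879, 16556 and 18020 on replicates 1 to 3 with probe A_55_P2039603 and of 12645, 11079 and 11425 with probe A_55_P2039601. Replicate 1 was the highest and replicate 2 the lowest with both. The corresponding levels were 5.10 ± 0.08 and 4.47 ± 0.05 (SD, n = 3), so the first probe read 0.63 ± 0.04 log2 units above the second, a ratio of 1.55. The arrays stood in the same order with both probes, but replicates 2 and 3 were nearly level with the second probe, at 4.438 and 4.439. With another background correction (normexp) replicate 3 was the lowest array for the second probe. Dgcr8, which recognises the hairpin and holds Drosha on it, gave 1837, 1796 and 1855 with its single probe, A_55_P2108067. After scaling its levels were 1.74, 1.81 and 1.82 (mean 1.79 ± 0.04), with replicates 2 and 3 closer to each other than either was to replicate 1.

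Dgcr8 is also a substrate of the Microprocessor, since the complex is known to cut a hairpin in the Dgcr8 transcript itself. In RefSeq (GRCm38.p6) the hairpin of Mir1306 lies within the bounds of Dgcr8 on the same strand. It is shown as the stretch of a gene described here that its own product recognises, and the capitals mark the mature 5p and 3p arms, and the hairpin stands at chr16:18284239-18284317, minus strand.

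Mir1306: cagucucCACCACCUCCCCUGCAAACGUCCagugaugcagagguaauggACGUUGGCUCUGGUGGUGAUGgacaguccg

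The array does not measure the cut, and the Dgcr8 probe was not placed relative to this hairpin here.

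Xpo5 had the smallest spread of the 14 probes. This exporter of hairpins gave 4268, 4061 and 4169 with probe A_52_P201232, or levels of 2.95, 2.99 and 2.98 (mean 2.98 ± 0.02). Its highest and lowest arrays were 0.04 log2 units apart, and 3.96% of all detected probes had a smaller SD. Ran, the small GTPase that exportins need to bind and release cargo, was detected as well, at a level of 8.37 ± 0.04 by its brighter probe.

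The 3 genes of the Dicer complex were also measured on every array. Dicer1, which encodes the enzyme that removes the loop, gave 3507, 3443 and 3495 with probe A_66_P103301, and its levels of 2.67, 2.75 and 2.73 (mean 2.72 ± 0.04) were lowest on replicate 1. Of the 14 probes only this one lies in an area where non-uniform spots of replicate 2 gathered (6 of 48 equal areas of the array held at least 10 such spots). Its own spots carried no outlier flag. Tarbp2 and Prkra encode related double-stranded RNA-binding partners of Dicer. Tarbp2 gave 18631, 18533 and 17152 with probe A_55_P2302285, with levels of 5.08, 5.18 and 5.03 (mean 5.10 ± 0.08). Prkra gave 709, 635 and 708 with probe A_51_P345836, with levels of 0.37, 0.31 and 0.43 (mean 0.37 ± 0.06). Replicate 2 was the highest array for Tarbp2 and the lowest for Prkra, within ranges of 0.15 and 0.11 log2 units that were not tested.

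Ago1 and Ago2 were each read by a bright and a dim probe of the same transcript accession. Ago2, the Argonaute of mammals best known for slicing its targets, gave 7208, 7893 and 7506 with probe A_51_P180001, and levels of 3.71, 3.95 and 3.83 (mean 3.83 ± 0.12). Its second probe, A_55_P2002133, gave 715, 723 and 715, and levels of 0.38, 0.50 and 0.44 (mean 0.44 ± 0.06). With both probes of Ago2, replicate 2 was the highest and replicate 1 the lowest array, and the bright probe was above the dim one by 3.39 ± 0.06 log2 units, a ratio of 10.5. Ago1, whose protein is loaded with microRNAs and acts without slicing, gave 874, 842 and 776 with probe A_52_P76402 and 48.0, 51.7 and 52.8 with probe A_55_P2184751. The mean levels were 0.65 ± 0.08 and -3.38 ± 0.12. Here the probes did not order the arrays alike: replicate 3 was the lowest with the bright probe, and replicate 1 with the dim one.

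The other Argonaute genes were detected as well, 1 of them with only 1 of its probes. Ago3 gave 39.1, 36.8 and 38.5, a level of -3.79 ± 0.02, and was well above background on all 3 arrays. Ago4 gave 85.3, 70.0 and 80.7 with its brighter probe (level -2.76 ± 0.10), while its other probe, A_52_P27122, gave 13.6, 12.6 and 9.17 and was well above background on 1 array. Ago4 was the only gene of the wider lists whose probes disagreed in detection. The GW182 proteins, which Argonautes recruit to silence a target, were represented by Tnrc6a (level 1.81 ± 0.06), Tnrc6b (0.26 ± 0.06) and Tnrc6c (0.95 ± 0.05), all well above background on all 3 arrays.

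Lin28a and Lin28b were both detected in the PD-treated cells. Lin28a, the form that acts mainly in the cytoplasm and is one of the factors used in reprogramming, gave 13665, 13585 and 12330 with probe A_55_P2074371. Its levels were 4.63, 4.73 and 4.55 (mean 4.64 ± 0.09), with replicate 2 the highest and replicate 3 the lowest. Lin28b, the paralogue that also holds let-7 precursors in the nucleus, gave 3835, 3461 and 3724 with probe A_55_P1970905, and levels of 2.80, 2.76 and 2.82 (mean 2.79 ± 0.03). Its second probe, A_52_P532355, gave 121, 129 and 106, and levels of -2.19, -1.98 and -2.32 (mean -2.16 ± 0.17), the largest SD of the 14. The Lin28b probes were 4.96 ± 0.20 log2 units apart, a ratio of 31.1, and replicate 2 was the lowest array with the bright probe and the highest with the dim one. The order of the cultures for Lin28b was therefore not settled by these arrays.

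Lin28 proteins bind let-7 precursors through the loop, where their zinc knuckles hold a GGAG motif, and recruit the uridyltransferases Tut4 and Tut7, whose tail marks the precursor for the nuclease Dis3l2. The mature 5p strands carry the seed GAGGUAG at bases 2 to 8, and it was present in all 9 distinct mature 5p sequences of the family in RefSeq. The seed is in capitals in the examples below, from chr9:106178846-106178867 (plus), chr15:85707325-85707346 (plus) and chrX:151913229-151913250 (plus) of GRCm38.p6.

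mmu-let-7g-5p: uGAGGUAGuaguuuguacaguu
mmu-let-7b-5p: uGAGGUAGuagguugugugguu
mmu-miR-98-5p: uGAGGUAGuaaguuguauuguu

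Of the 12 hairpins of the family (11 named let-7, and Mir98), 9 held GGAG between their mature arms and 3 did not (Mirlet7b, Mirlet7c-2 and Mir98). The stretch between the arms was 23 to 36 bases long. Among other RefSeq hairpins with a stretch of 23 to 36 bases, 7 of 50 held GGAG, or 14%, searched on the strand of the RNA. The hairpins below are shown because they are what Lin28a and Lin28b act on; capitals mark GGAG between the arms, which Mirlet7b lacks. They lie at chr9:106178840-106178927 (plus), chr13:48536012-48536114 (minus) and chr15:85707319-85707403 (plus) of GRCm38.p6, respectively. A match of these letters is a description of the sequence and not a measured site.

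Mirlet7g: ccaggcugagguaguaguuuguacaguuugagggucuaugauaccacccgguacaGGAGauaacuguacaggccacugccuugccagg
Mirlet7d: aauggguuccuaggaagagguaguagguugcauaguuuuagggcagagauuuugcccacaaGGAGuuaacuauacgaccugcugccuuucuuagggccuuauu
Mirlet7b: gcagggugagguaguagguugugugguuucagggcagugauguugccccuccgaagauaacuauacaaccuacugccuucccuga

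The genes that act on let-7 with Lin28 were all detected. Tut4 had levels of 2.89 ± 0.02 and 0.78 ± 0.02 with its pair of probes, and Tut7 had 2.08 ± 0.05. Trim71, a let-7 target that encodes an RNA-binding ubiquitin ligase, had 4.55 ± 0.04 and -0.49 ± 0.02. Several let-7 genes lie inside longer genes on the same strand, and these hosts, chosen by position after the other values had been seen, include protein-coding genes that were measured. Wdr82, around Mirlet7g, had a level of 3.61 ± 0.03, Huwe1, around Mir98 and Mirlet7f-2, had 4.61 ± 0.07, and Spaca6, around Mirlet7e, had -4.34 ± 0.13 with signals of 25.9, 28.0 and 24.6. All 3 were well above background on all 3 arrays. A host transcript that was detected says nothing of whether the hairpin inside it was processed.

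The wider pathway was covered by 6 lists with 64 genes, of which 63 had a probe. By the brightest probe of each gene, 59 of 63 were well above background on all 3 arrays, beside 72.7% of all named genes. Detection was complete among the cofactors of the Microprocessor such as Ddx5 and Ddx17 (10 of 10), in the set around Argonaute (16 of 16), among the partners of Lin28 and enzymes of RNA turnover (15 of 15) and among genes known as let-7 targets (11 of 11). The median SD was 0.077 in the first, 0.053 in the second, 0.050 in the third and 0.066 in the fourth of these lists. No gene of the 6 lists had arrays more than 1 log2 unit apart by its brightest detected probe, beside 1.85% of all detected probes. With so small a share, this count is not read as setting the lists apart.

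Among host transcripts of microRNAs, 6 of 10 were detected on all 3 arrays, beside the same 72.7% of named genes, so this share is not read as setting the hosts apart. Mir17hg, the primary transcript of the miR-17-92 cluster, gave 2256, 2141 and 1978 (level 2.00 ± 0.08). Meg3 and Mirg come from the imprinted Dlk1-Dio3 region with its large microRNA cluster. Meg3 had a level of 4.57 ± 0.02 with its brightest probe, and -0.12 ± 0.18 and -1.27 ± 0.17 with its other probes. Mirg had a level of 2.53 ± 0.33. The spread of Mirg came from replicate 2 (2.30, 2.92 and 2.38), and its probe lies in one of the areas with gathered non-uniform spots on that array. The spots of this probe carried no outlier flag, and the part of the area in the difference was not tested. Dleu2, around the miR-15a and miR-16-1 hairpins, had -1.21 ± 0.10, and Mir22hg and Mir9-3hg had -3.30 ± 0.31 and -1.71 ± 0.19.

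The other 4 hosts were not detected on all arrays. Mir124-2hg, host of a neuronal microRNA, gave 2.61, 3.00 and 2.62, Mir1a-1hg, host of a muscle microRNA, gave 2.49, 2.79 and 2.54, and Mir99ahg gave 2.68, 3.05 and 2.76, and these probes were well above background on none of the arrays. Mir100hg, the host of Mirlet7a-2, gave 6.63 and 2.97 on replicates 2 and 3. Its spot on replicate 1 was marked as non-uniform, with a signal of 103350, and was left out, so its level rests on the other two arrays. Each of these probes gives only the level of the RNA it matches, not that of the microRNA.

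**Figure D2:**
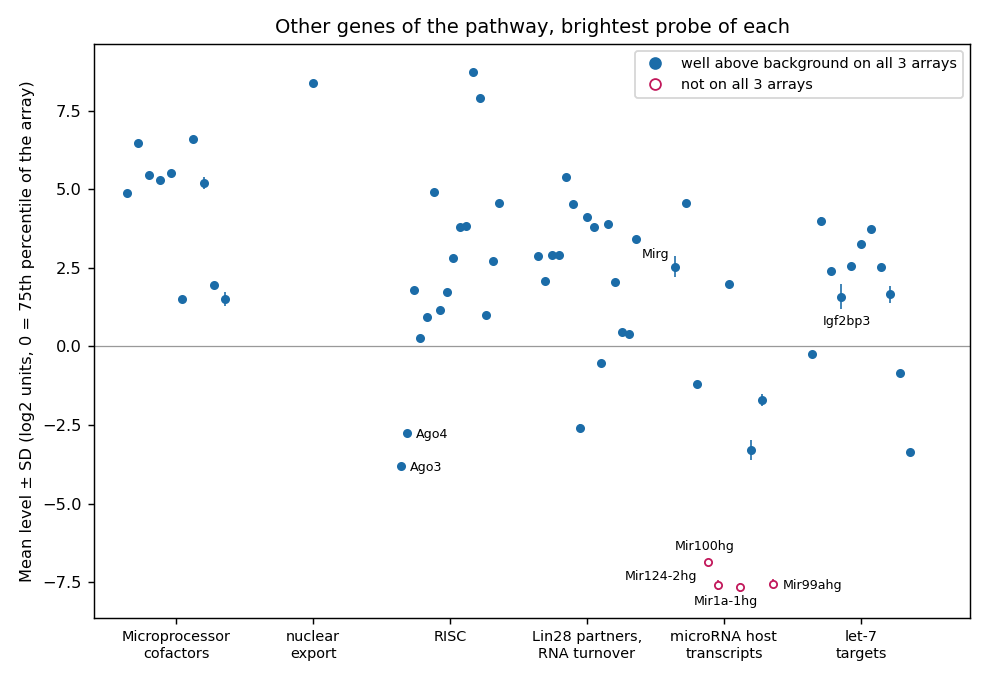
Mean level (vertical axis, log2 units, 0 being the 75th percentile of the array) of the brightest probe of each of the 63 genes in 6 lists, drawn in the order of the list, with bars for the SD over the 3 arrays (none for Mir100hg, which has values on replicates 2 and 3 only). Filled points mark the 59 genes detected on every array; the 4 open points are all hosts of microRNAs.

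Let-7 targets are of interest beside Lin28 because they are repressed when mature let-7 accumulates. Hmga2 had levels of -0.25 ± 0.07 and -2.20 ± 0.11 with its pair of probes, Igf2bp1 4.01 ± 0.12 and Cdc25a 3.73 ± 0.02. All were well above background on all 3 arrays. Igf2bp3 was lower on replicate 2, at 1.13, than on replicates 1 and 3, at 1.78 and 1.85 (mean 1.59 ± 0.39). Its probe lies in one of the areas with gathered non-uniform spots on replicate 2, though its own spots carried no outlier flag. The part of this area in the difference was not tested. The only probe of the 6 lists that was detected and had arrays more than 1 log2 unit apart was the second probe of Msi1, which encodes an RNA-binding protein that works with Lin28. It read -4.11, -3.43 and -4.46, a range of 1.03, and also lies in such an area. Its spots carried no outlier flag, and the brighter Msi1 probe read 0.40 ± 0.06. A gap of more than 1 log2 unit was found in 1.85% of all detected probes. Replicate 2 also stood apart outside these areas. The dimmer probe of Hnrnpa1 read 2.00, 1.55 and 2.20, and the stem cell marker Pou5f1 read 4.35, 5.04 and 4.28.

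The 3 cultures differed little in the transcripts of the 10 genes, as they did over most detected probes. The SD over the 3 arrays ran from 0.02 log2 units for Xpo5 to 0.17 for the dim probe of Lin28b, with a median of 0.070. The median was 0.090 over all 33474 detected probes with a value on every array, and 0.077 over those matched to a gene. The median gap between the highest and the lowest array was 0.14 log2 units, beside 0.17 over all detected probes, and the largest was 0.33. None of the 14 probes had arrays more than 1 log2 unit apart, a gap found in 1.85% of all detected probes, or 619 probes. With so small a share, this count is not read as setting the 10 genes apart.

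Spread depends on brightness, and most of the 14 probes are bright. With all detected probes split into 10 classes of equal size by level, the median SD was 0.22 in the dimmest class and 0.057 in the brightest. Against probes of their own class, 8 of 14 had an SD below the median, so the spread of these genes lay near that of probes of similar level. Ago2 with its bright probe (87.0% of its class had a smaller SD), Lin28a (80.5%), the dim probe of Lin28b (76.6%), the first Drosha probe (73.1%) and Tarbp2 (72.8%) lay in the upper part of their class, and Xpo5 (8.63%) in the lower part.

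**Figure D3:**
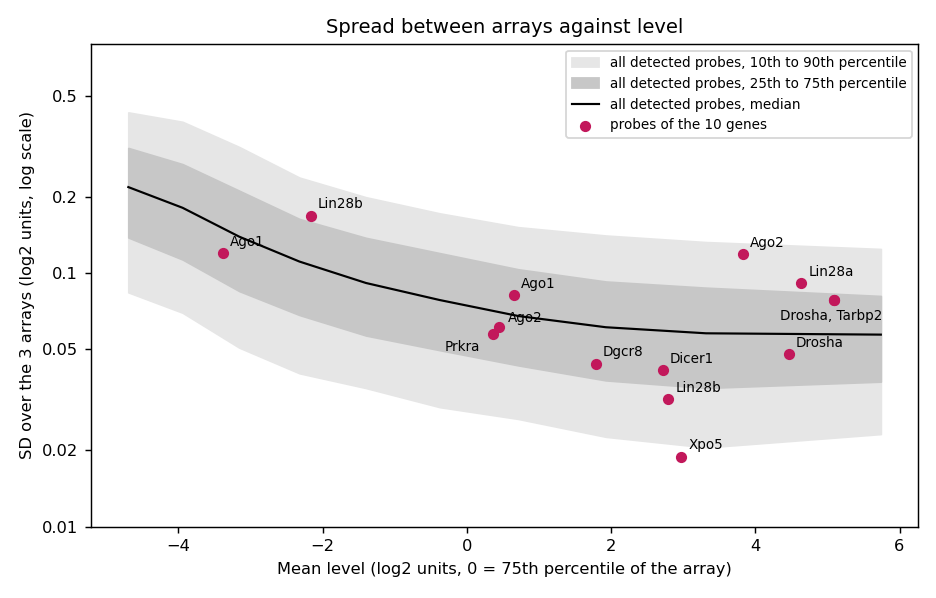
SD over the 3 arrays (vertical axis, log2 units on a log scale) against mean level (horizontal axis, log2 units) for the 14 probes, over bands for all detected probes in 10 classes of level. Points for Xpo5 and the bright probe of Lin28b lie low among probes of their level. Those for the bright probes of Ago1 and Ago2, Lin28a, Tarbp2, the first Drosha probe and the dim probe of Lin28b lie above the median line.

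The coefficient of variation was taken from the signals before scaling between arrays, so it includes differences in array brightness. Over the 3 arrays it was between 0.607% (second probe of Ago2) and 10.1% (dim probe of Lin28b), with a median of 5.09%. The error that the software assigned to a single spot was 10% to 11.3% of the signal. It was close to 10% for all but the dim probes of Ago1 and Lin28b, so it was nearly a fixed share of the signal. A range over 3 arrays is also another measure than the error of 1 spot, so the counts below are descriptions only. For 7 of 14 probes the highest and the lowest unscaled signal were closer than that error. For the other 7 they were farther apart, among them the first Drosha probe and the dim probe of Lin28b. Scaled levels differed from this. The bright Ago2 probe was among the first 7 but had a range of levels of 0.24 log2 units. The bright Lin28b probe was among the other 7 but had a range of 0.06.

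No array was the highest or the lowest for all of these genes. Replicate 2 was the highest array for 9 of 14 probes, replicate 3 for 3 and replicate 1 for 2, but with the median of each array in place of its 75th percentile these counts became 5, 7 and 2, so the order of the arrays rests on the scaling. Replicate 2 lay farthest from the median of the arrays for 5 of 14 probes, beside 41.2% of all detected probes, replicate 1 for 7, beside 29.5%, and replicate 3 for 2, beside 29.3%. The highest array was the same under all 7 ways of scaling and background correction for both Drosha probes, Tarbp2, Prkra, Lin28a, the bright probes of Ago1 and Ago2 and the dim probe of Lin28b. For Xpo5 it was the same under 5 and for the dim probe of Ago1 under 4 of the 7.

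**Figure D4:**
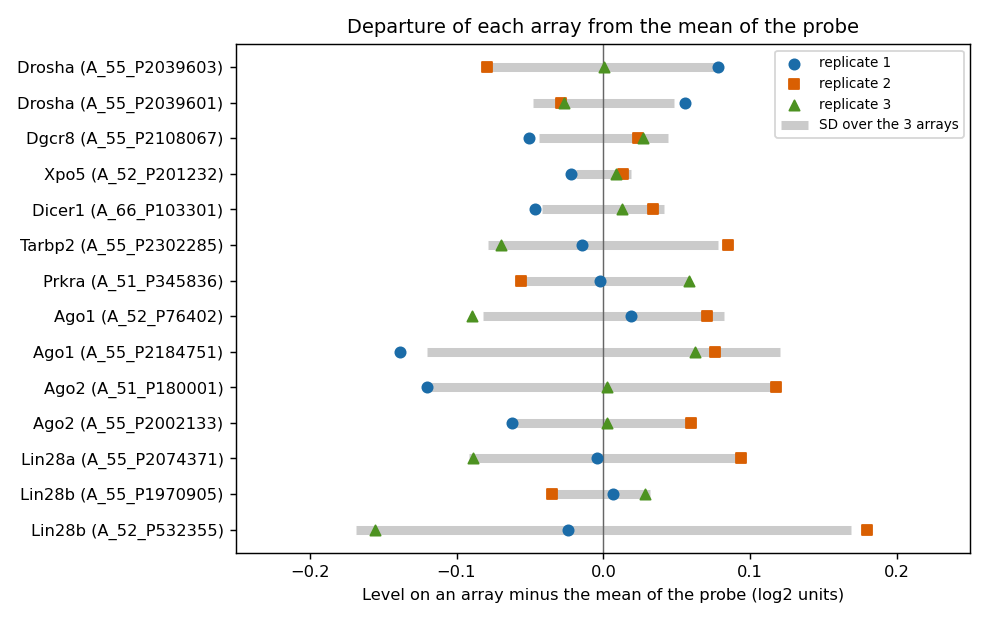
Level on each array minus the mean of the probe (horizontal axis, log2 units) for the 14 probes, with 1 point per replicate and a grey bar for the SD over the 3 arrays. All departures are within 0.25 log2 units of 0, and the replicate at the right end changes from probe to probe.

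For the 4 genes with 2 probes, the gap between the probes was larger than the widest difference between cultures among the 14 probes (0.33). Across 3059 accessions with 2 detected probes, the median gap in level was 1.86 log2 units and the 90th percentile was 4.96. The Drosha gap of 0.63 was above 20.9% of these, those of Ago2 (3.39) and Ago1 (4.03) were above 75% and 82.2%, and that of Lin28b (4.96) was above 90%. The level of Ago1, Ago2 or Lin28b in these cells therefore depends on which probe stands for the gene, while their detection did not.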

How the data were processed

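RNA of 3 PD-treated cultures, prepared in independent experiments per the study's methods, was measured on 1 Agilent array each. The deposited scanner files hold spot intensities from Agilent Feature Extraction 10.7.3.1. Per the file headers, the software subtracted background and removed spatial trends within each array; the authors did not normalize these intensities between arrays. The authors also deposited a table of log2 values per probe whose normalization is not given in the sources used here; it served as an alternative. The array grid refers to mm9. Accessions without versions were matched to RefSeq gene symbols (GRCm38.p6), which named 27235 of 55681 probes.

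The level was log2 of the processed intensity, averaged over spots without outlier flags, minus the array's 75th percentile over non-control probes (intensities of 550.5, 511.3 and 526.7). Detection on an array meant the software's flag for a signal well above background on 50% or more of a probe's spots. A gene of the wider lists was represented by its brightest probe. SDs are over 3 arrays, whose number limits the precision; all arrays share 1 slide and 1 scan. With 1 group, levels, ranges and counts are descriptions without a test. Sequences came from RefSeq tables. Named are all probes of the 10 genes and, of the wider lists, relatives of these genes and genes whose detection failed, whose probes disagreed or whose arrays were over 1 log2 unit apart; other genes were named after their values were seen. The 10 genes and the lists were chosen with earlier results of these data known. Python 3.11.15, pandas 2.3.3, NumPy 2.4.6, R 4.3.3 and limma 3.58.1 (normexp) were used, and the scripts were tested on simulated data. Quantile normalization was done in Python. Other scalings, background correction, detection rules and leaving out each replicate were tried as alternatives.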

Additional observations from a re-analysis of the deposited data

How the results depend on the processing

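Detection of the 14 probes did not change under a looser flag, with every spot required or without any 1 replicate, and 58 to 60 genes of the wider lists were detected under these and 2 other rules for several probes. The median SD, 0.070, was between 0.063 and 0.068 under other scalings, normexp, the deposited table and kept outlier spots, and between 0.050 and 0.064 when a replicate was left out. No probe had arrays over 1 log2 unit apart under any alternative, and replicate 2 was farthest for 4 to 6 probes. The median level over the 14 probes, 2.76, became 6.50 with the median of each array as zero, 0.84 with the percentile over detected probes and 2.46 with normexp (offset 50), and lay between 2.75 and 2.77 without 1 replicate. The first and second of these shift the zero of the scale for all probes alike; normexp moved single probes by -0.33 to 0.98, most for the dim probe of Ago1. With 1 spot per array, none of the 10 genes could be tested for differences between arrays against spot error, so the planned test on probes with 10 spots was not run. No paired analysis was possible because the samples form 1 group.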
